A study of Mus musculus with 4 samples.

Results

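The nuclear-encoded genes of the mitochondrial respiratory chain and ATP synthase were described across the cells of MC38b tumours from mice given saline, an antibody against PD-1, or antibodies against PD-1 and TL1A. Members were the genes whose symbol begins with Nduf, Sdh, Uqcr, Cox4i, Cox5, Cox6, Cox7, Cox8 or Atp5 in all 4 matrices, with Cox6a2 left out because it marks plasmacytoid dendritic cells. This rule gave 97 of 32285 genes, of which 85 are named for subunits and 12 for assembly factors. Among the 85, Ndufb1-ps is annotated in GENCODE as a noncoding RNA at a bidirectional promoter and the others as protein-coding. Complex I (Nduf) had 47 members, complex II (Sdh) 8, complex III (Uqcr) 8, complex IV (Cox) 17 and complex V (Atp5) 17, and the members lay on 19 chromosomes. The 13 mitochondrially encoded protein genes (mt-), 7 of complex I, 1 of III, 3 of IV and 2 of V, were measured beside them. Cox8b, Cox8c and Ndufa4l2 had 8, 1 and 16 UMIs (unique molecular identifiers, each standing for a captured transcript) in all named cells and were never tested, and 70 to 93 members passed the filter on low counts, depending on the cell class.

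The respiratory chain passes electrons from NADH, through complex I, and from succinate, through complex II, to complex III, cytochrome c and complex IV, which reduces oxygen. The proton gradient built on the way drives ATP synthase, complex V. Most subunits are made from nuclear genes and imported, while a small set is made inside the organelle from mitochondrial DNA, so a working complex draws on both genomes. In tumour-infiltrating T cells and macrophages the balance between oxidative phosphorylation and glycolysis is a known part of activation and exhaustion states.

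Many promoters of these genes carry sites of NRF1 or of GABPA and other ETS factors, which are regulators of mitochondrial biogenesis. RefSeq promoter windows on GRCm38.p6, from 250 bases before to 50 after the start, were found for 79 of the 97 members. The NRF1 core GCGCATG, searched on both strands, lay in the windows of 15 of these 79 members (19.0%) against 4.41% of all 27025 genes with a window and 7.58% of the genes tested in CD8 T-like cells. The ETS motif CCGGAAG was in 22 members (27.8%) against 9.93% and 19.7%. Either motif was found in 31 members, and both in 6. The NRF1 core overlaps its own reverse complement in the 3 NRF1 promoters printed, so that 10 bases stand in capitals there. The 120 bases before the start are printed for 5 members that recur in the results below, written 5′ to 3′ along the gene's strand, with the match in capitals. Atp5g2 (chr15:102671048-102671167, minus strand), Ndufa11 (chr17:56717642-56717761, plus strand) and Atp5k (chr5:108434400-108434519, minus strand) show the NRF1 motif, and Ndufb7 (chr8:83566638-83566757, plus strand) and Uqcr11 (chr10:80406822-80406941, minus strand) the ETS motif.
Atp5g2: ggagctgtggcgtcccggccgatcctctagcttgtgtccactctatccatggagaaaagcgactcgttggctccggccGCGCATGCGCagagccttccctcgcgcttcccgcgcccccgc
Ndufa11: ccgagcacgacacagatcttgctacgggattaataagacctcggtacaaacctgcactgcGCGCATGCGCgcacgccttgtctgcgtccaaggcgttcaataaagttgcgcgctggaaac
Atp5k: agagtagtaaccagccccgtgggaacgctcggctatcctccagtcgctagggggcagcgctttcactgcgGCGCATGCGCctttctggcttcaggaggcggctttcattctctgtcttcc
Ndufb7: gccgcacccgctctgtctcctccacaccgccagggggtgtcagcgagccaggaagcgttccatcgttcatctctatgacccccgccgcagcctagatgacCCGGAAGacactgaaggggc
Uqcr11: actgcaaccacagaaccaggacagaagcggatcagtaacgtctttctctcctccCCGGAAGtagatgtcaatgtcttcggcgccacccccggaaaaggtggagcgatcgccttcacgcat
The motif is a match of letters, and binding was not measured. Among members called higher in the antiPD1 library, the NRF1 motif was in 3 and the ETS motif in 4 of the 24 with a window in CD8 T-like cells, and in 8 and 12 of 43 in monocyte/macrophage-like cells.

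Tumours were removed 24 h after the 2nd dose, and live cells were sorted into CD45+CD3+, CD45+CD3− and CD45−CD3− gates, which were remixed at 9 to 9 to 2 parts before 20000 cells per condition were loaded for 10x droplet sequencing. There were 4 libraries: PBS1 and PBS2 (saline), antiPD1 (anti-mouse PD-1) and antiPD1TL1A (anti-mouse PD-1 plus anti-mouse TL1A, called the combination library here). The labels give 2 animals for saline and 4 for each treated library, pooled before the sort. They leave unsaid whether a PBS library stands for a single animal or for a pool. The p-values here thus reflect no more than how these libraries vary, and part of that variation may be technical. Each treated arm is 1 library and is assumed to vary like the PBS pair. Sources used here do not give mouse strain, age or doses, and all mice carried MC38b tumours (MC38 is a mouse colon carcinoma line, and how MC38b differs from it was not stated). The CD45-negative cells had the fibroblast genes Col3a1 and Dcn among the leading genes of 1 of their 5 clusters and no keratin among the leading genes of any.

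The libraries held 6732 (PBS1), 6448 (PBS2), 13231 (antiPD1) and 11177 (combination) barcodes, with a median of 7798, 7645.5, 3588 and 7098 UMIs. The antiPD1 library was thus the shallowest per cell, and in CD8 T-like cells the median was 9251.5, 11143, 6101.5 and 8947.5 UMIs in the order PBS1, PBS2, antiPD1, combination, which is the order of libraries used throughout. PBS1 and PBS2 shared 673 barcodes, PBS1 and antiPD1 1255, and PBS2 and antiPD1 1778, against 21 to 39 for the pairs with the combination library. The smaller copy of a shared barcode held a median of 1.15% to 2.65% of the UMIs of the larger in the first 3 pairs. Copies more than 10-fold smaller were left out, which removed 2.39%, 7.45%, 14.4% and 0.0183% of the barcodes that passed the other filters. Kept were 6087, 5543, 10058 and 9954 cells. Clusters were formed without the members and mt- genes and named from markers, so that every class name means cells like that type.

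Among the 14 classes, nuclear members held the largest share of a cell's transcripts in CD45-negative cells and the smallest in neutrophil-like cells. These were also the deepest and the shallowest cells, with cluster medians of 50683 to 87886 and of 2479.5 to 2493.5 UMIs. The part of depth in this ranking was not tested. Their share of UMIs, summed over the cells of a class, averaged 2.12% ± 0.134 (SD, n = 4 libraries) in CD45-negative cells, 1.74% ± 0.131 in CD8 T-like, 1.64% ± 0.137 in monocyte/macrophage-like, 1.60% ± 0.129 in NK-like, 1.39% ± 0.112 in Treg-like, 1.25% ± 0.132 in CD4 T-like, 0.938% ± 0.0737 in B-like and 0.544% ± 0.061 in neutrophil-like cells. CD8 T-like against monocyte/macrophage-like cells, and these against NK-like cells, differed by less than 1 SD. Within CD8 T-like cells the cycling cluster, led by Mki67, Top2a and histone genes, had 1.96%, 1.90%, 2.25% and 1.93% against 1.59%, 1.56%, 1.85% and 1.67% in the other clusters. Cycling cells were thus higher in each of the 4 libraries. In neutrophil-like cells the share was 0.581%, 0.467%, 0.603% and 0.523%, below every library of every other class. A share of UMIs describes how transcripts are divided and does not give the amount of RNA per cell. Nuclear member UMIs per cell averaged 1441 in CD45-negative and 14.5 in neutrophil-like cells.

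**Figure D1:**
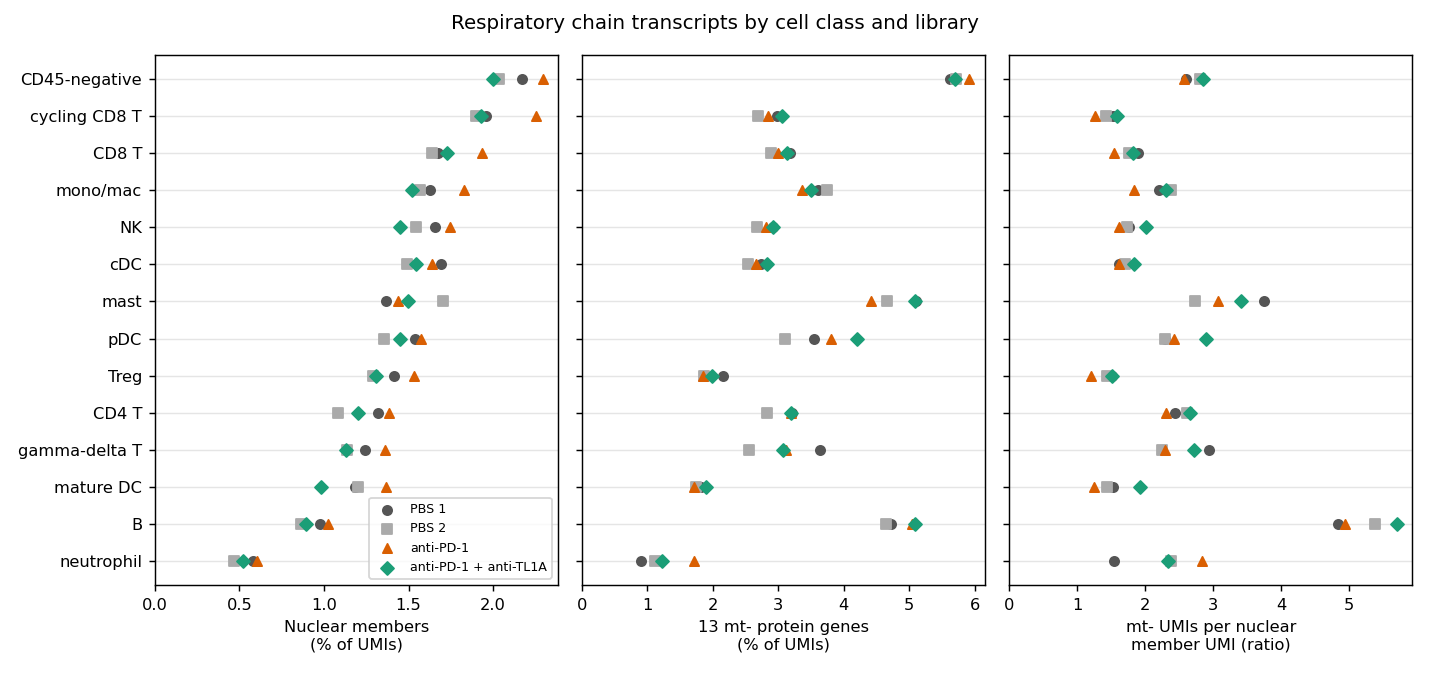
Share of UMIs from the nuclear members (percent), share from the 13 mt- protein genes (percent) and the ratio of mt- to nuclear UMIs, for 14 cell classes. Each point is 1 of the 4 libraries. CD45-negative cells lie highest in the nuclear share (mean 2.12%) and neutrophil-like cells lowest (0.544%), while B-like cells have the highest ratio (mean 5.22).

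The mitochondrially encoded transcripts did not follow the nuclear ones across classes. The 13 mt- genes held 5.74% of UMIs in CD45-negative cells, 4.87% in B-like, 3.55% in monocyte/macrophage-like, 3.05% in CD8 T-like, 1.96% in Treg-like and 1.24% in neutrophil-like cells (means of 4 libraries). The ratio of mt- to nuclear UMIs therefore ranged from 1.42 in Treg-like and 1.45 in cycling CD8 T-like cells to 2.71 in CD45-negative, 3.24 in mast-like and 5.22 in B-like cells. Mast-like cells numbered only 16, 14, 50 and 30. B-like cells combined a low nuclear share with a high mt- share in all libraries. Complex by complex, the nuclear share in CD8 T-like cells of PBS1 was 0.509% for complex I, 0.0323% for II, 0.16% for III, 0.44% for IV and 0.531% for V, and the mt- share was 0.76% for I, 0.249% for III, 1.57% for IV and 0.6% for V. Complex IV was thus the complex whose mt- transcripts, those of mt-Co1, mt-Co2 and mt-Co3, most outnumbered the nuclear ones.

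The isoform genes Cox4i2 and Cox6b2 had low levels and were at 0 in some classes. Levels are CPM, the UMIs of a gene divided by the class total and scaled to the same total in every library, from 3′ tags and are not divided by length. Cox4i1, the common form of the largest nuclear-encoded subunit of complex IV, averaged 697 ± 96 CPM (SD, n = 4 libraries) in monocyte/macrophage-like, 651 ± 107 in CD8 T-like, 636 ± 84 in CD45-negative and 241 ± 42 in neutrophil-like cells. Cox4i2, the isoform known from lung and low oxygen, reached only 12.2 ± 2.74 CPM in Treg-like and 11.1 ± 4.31 in neutrophil-like cells on 3 to 7 UMIs per library in the latter, and was at 0 in B-like, mast-like and plasmacytoid dendritic-like cells. Treg-like and neutrophil-like cells were its highest classes, and their levels overlapped. Cox6b2, known as the testis form of Cox6b1, was highest in mast-like (37.1 ± 21.8) and conventional dendritic-like cells (13.9 ± 2.84), with 0 UMIs in B-like, gamma-delta T-like, neutrophil-like and CD45-negative cells. The mast-like value rests on 14 to 50 cells per library. Cox7a1, known from muscle, averaged 6.44 ± 1.65 CPM in monocyte/macrophage-like cells. Its common counterpart Cox7a2 averaged 417 ± 47 in NK-like cells, another class, so these values give no ratio within a class. For the member of each complex with the highest summed level, class means ranged 3.73-fold (Ndufa13), 3.22-fold (Sdhb), 4.03-fold (Uqcrh), 3.16-fold (Cox8a) and 2.87-fold (Atp5e). Some other common subunits differed more, such as Ndufa9 between neutrophil-like and monocyte/macrophage-like cells (log2 difference −3.13, on few UMIs). Whether isoform genes separated the classes more than common subunits was not tested.

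Cycling CD8 T-like cells had higher levels of most members than the other CD8 T-like cells. Of 93 members tested, 73 were higher and 4 lower (edgeR quasi-likelihood test on class sums with the library as a block, Benjamini-Hochberg adjusted p under 0.05), against 25.5% of all 12417 genes called higher and 23.6% lower, and the member median was a log2 fold change of 0.33 against −0.02 for all genes. The rise spanned the complexes, with 34 of 38 subunits of complex I, 3 of 4 of II, 6 of 8 of III, 10 of 14 of IV and 15 of 17 of V. Assembly factors followed less often, with 5 of 12 higher and 1 lower, but that difference was not tested. Ndufab1, the mitochondrial acyl carrier protein that is also a complex I subunit, had 152, 123, 147 and 146 CPM in cycling cells against 85.6, 73.8, 87.4 and 87.6 in the others. All 4 libraries were higher in cycling cells, without overlap, and the log2 fold change was 0.76 ± 0.0524 (SE; adjusted p = 1.68e-10). Atp5o (0.69), the complex I flavoprotein Ndufv1 (0.69), Cox5a (0.64) and the complex II anchor Sdhd (0.60) were also higher.

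The 4 exceptions in cycling cells were Ndufa6 (log2 fold change −0.45), Cox7a2l (−0.44), Ndufaf4 (−0.36) and Uqcrh (−0.22). Cox7a2l, a factor that joins complexes III and IV into supercomplexes, had 193, 173, 238 and 184 CPM in cycling cells against 270, 236, 326 and 238 in the others, so that the antiPD1 cycling value overlapped the lower values of the other cells while each library by itself was lower. The mt- genes did not rise with the nuclear members, with 1 of 13 higher and 3 lower and a median of −0.04. Mitochondrial ribosomal protein genes were higher for 57 of 78, tricarboxylic acid (TCA) cycle genes for 10 of 16 with 1 lower, and cytosolic ribosomal protein genes for 11 of 84 with 38 lower. Without the library block 38 members were higher and 2 lower. Cycling cells had a median of 13574 to 24931 UMIs against 5747 to 10338 in the others, and the part of depth in the difference was not tested.

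Neutrophil-like cells had lower levels of nearly all members than monocyte/macrophage-like cells, with 81 of 93 lower and 2 higher, against 35.6% of all genes lower and 24.4% higher, and a member median of −1.49 against −0.40 for all genes. Ndufc2, Ndufa5 and Ndufa9, all complex I subunits, had the lowest fitted values among members with UMIs in most neutrophil-like libraries. Ndufc2 and Ndufa5 were at 0 in neutrophil-like cells of the antiPD1 library. Ndufa9 had 5.6, 5.49, 3.83 and 7.31 CPM against 48.8, 47, 65.7 and 45.6 in monocyte/macrophage-like cells, a log2 difference of −3.13 ± 0.395 (adjusted p = 7.8e-13) without overlap. The neutrophil-like values of Ndufa9 rest on few UMIs, since the sums of this class held 387159, 654602, 289488 and 464164 UMIs over all genes. Cox6b2 and the assembly factor Ndufaf5 were also called lower but were at 0 in at least 3 of the 4 neutrophil-like libraries, so no fold is given. The 2 higher members were Cox4i2 (1.70 ± 0.527) and the assembly factor Ndufaf7 (1.62 ± 0.291), which had 44.8, 56.7, 49.8 and 41.4 CPM against 17.6, 14.9, 17.1 and 13.7. Mitochondrial ribosomal protein genes were lower for 70 of 78 and all 13 mt- genes were lower, while 9 of 19 genes of glycolysis and hypoxia were higher and 1 lower. Neutrophil-like clusters had medians of 2479.5 and 2493.5 UMIs per cell, against 5295 to 27707.5 in monocyte/macrophage-like clusters. The part of depth in the difference was not tested.

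CD45-negative cells had higher levels of 56 of 93 members than monocyte/macrophage-like cells and lower levels of 22, against 44.5% and 40.7% of all genes, with a member median of 0.24 against 0.07. The complex I members Ndufaf2 (1.69), Ndufa12 (1.62), Ndufaf4 (1.52) and Ndufaf6 (1.41), 3 of them assembly factors, led the higher ones, and 9 of 12 assembly factors were higher and 2 lower. Ndufa4, a protein now placed with complex IV, had 477, 428, 372 and 420 CPM against 140, 139, 141 and 153, a log2 difference of 1.56 ± 0.0718 (adjusted p = 3.01e-09). Complex II showed no such rise, with 0 of 4 subunits higher and 2 lower. Cox7a1 (0.449, 0.0732, 0.349 and 0.259 CPM against 6.02, 7.8, 8.09 and 4.42), Cox4i2, Cox6b2, Ndufa1 (−1.12) and Ndufa11 (−0.92) were lower. CD45-negative clusters had medians of 50683 to 87886 UMIs per cell, against 5295 to 27707.5 in monocyte/macrophage-like clusters, and the part of depth was not tested.

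Monocyte/macrophage-like and CD8 T-like cells differed in both directions, and the balance turned with the setting. Against CD8 T-like cells 40 of 93 members were higher and 19 lower, beside 38.8% and 39.5% of all genes, with a median of 0.09 against −0.03. With total UMIs in place of TMM factors 20 were higher and 33 lower, and the medians were −0.054 for members and −0.17 for all genes. In cells of 3000 to 10000 UMIs 48 of 92 were higher and 12 lower, with medians of 0.23 and −0.06, and without the count filter 23 of 96 were higher and 29 lower. Sdhc, a membrane anchor of complex II, had 56.1, 52.8, 58 and 58.6 CPM against 32.8, 29.2, 30.3 and 38.4 (log2 difference 0.79 ± 0.0715, adjusted p = 1.46e-06), and Cox7a1 (2.39), Cox6b2 (1.83) and Ndufc1 (0.69) were also higher. Ndufa4 had 144, 142, 147 and 157 against 308, 281, 294 and 315 (−1.02 ± 0.051, adjusted p = 8.87e-09), and the assembly factors Ndufaf4 (−0.89), Ndufaf5 (−0.61), Ndufaf1 (−0.56) and Sdhaf1 (−0.55) were lower. None of these pairs of levels overlapped between the classes.

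NK-like cells had 5 of 93 members higher and 36 lower than CD8 T-like cells, against 23.9% and 25.2% of all genes, with a median of −0.11. Apart from Cox4i2, the largest differences that passed were small: Ndufaf2 0.36, Ndufs4 0.34 and Cox7a2 0.23 higher, and Ndufaf5 −0.52, Ndufa11 −0.33, Sdhb −0.32 and Cox7a2l −0.31 lower. Cox4i2 was lower by more (−1.10) but at very low levels, 0.951, 1.14, 1.27 and 1.13 CPM against 2.28, 3.02, 2.39 and 2.1. Without the library block the counts were 2 higher and 4 lower, and without the antiPD1 library 3 and 12. Treg-like cells had 26 of 91 members higher and 9 lower than CD4 T-like cells, against 22.7% and 22.0% of all genes, with a median of 0.06. In cells of 3000 to 10000 UMIs 16 of 89 were higher and 17 lower with a median of −0.052, below 0, and without the library block 8 were higher and 4 lower. Sdhaf1, which inserts iron-sulphur clusters into complex II, was the clearest member, at 101, 86.5, 90.1 and 75.8 CPM in Treg-like against 49.6, 39.9, 46.6 and 28.6 in CD4 T-like cells (1.13 ± 0.107, adjusted p = 7.5e-10). Cox4i2 (1.57), Ndufaf3 (0.84) and Ndufb7 (0.59) were also higher, and Cox7a2l (−0.72), Ndufa6 (−0.48) and Uqcrh (−0.33) lower. All 13 mt- genes were lower in Treg-like cells (median −0.78), as were 80 of 83 cytosolic ribosomal protein genes.

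Nuclear members were higher in the antiPD1 library than in the PBS pair, with member medians above 0 in each of the 7 classes tested, although the neutrophil-like median was −0.14 when doublets were kept. The shares of UMIs in CD8 T-like cells were 1.67%, 1.64%, 1.93% and 1.73%, and in monocyte/macrophage-like cells 1.63%, 1.57%, 1.83% and 1.52%. The antiPD1 library was the highest of the 4 in both. It was also the highest in CD4 T-like (1.32%, 1.09%, 1.38%, 1.20%), Treg-like (1.42%, 1.29%, 1.53%, 1.31%), NK-like (1.66%, 1.54%, 1.74%, 1.45%), neutrophil-like and CD45-negative cells (2.17%, 2.04%, 2.29%, 2.00%). The PBS pair differed as well, with PBS2 below PBS1 for 81 to 85 members in CD8 T-like, CD4 T-like, Treg-like, NK-like and monocyte/macrophage-like cells. The class comparisons use the same libraries and are not independent of each other.

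Single members were called in 4 of the 7 classes. In CD8 T-like cells 29 of 93 members were higher and 0 lower (edgeR quasi-likelihood test, Benjamini-Hochberg adjusted over all genes), against 2.99% of 14661 genes higher and 1.47% lower, with a median of 0.31 against −0.01. In monocyte/macrophage-like cells 48 of 93 were higher and 1 lower, against 7.85% and 6.87% of 14627 genes, with a median of 0.30. In Treg-like cells 5 of 91 were higher and 0 lower (0.759% and 0.673% of all genes; median 0.22), and in CD45-negative cells 8 higher and 1 lower of 91 (2.14% and 1.85%; median 0.22). In CD4 T-like (median 0.26), NK-like (0.21) and neutrophil-like cells (0.23) edgeR called 0 members, beside 0.213%, 0.788% and 0.0182% of all genes in either direction. There 15, 35 and 1 members had an unadjusted p under 0.05, and DESeq2 also called 0. The share of all genes under that unadjusted limit is not given, so these counts are not read as a result about the members. The antiPD1 value lay above both PBS values for 68 of 93 members in CD8 T-like and 75 of 93 in monocyte/macrophage-like cells (36.6% and 39.8% of all genes), and below both for 9 and 11 (38.0% and 40.2%).

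The calls rest on the settings. The 29 calls in CD8 T-like cells became 0 when total UMIs replaced TMM factors, 0 when clusters were formed at a resolution 1.5 times as high, 10 by DESeq2 and 47 in cells of 3000 to 10000 UMIs. In monocyte/macrophage-like cells 16 higher and 2 lower were called with total UMIs, 13 by DESeq2 and 23 in cells of 3000 to 10000 UMIs. Total UMIs moved the median of all genes to between −0.07 and −0.14 over the 7 classes, with member medians of 0.10 to 0.22. The 5 calls in Treg-like cells were lost with total UMIs, with DESeq2, with low-UMI clusters kept and with a mitochondrial limit of 30%, and those in CD45-negative cells came down to 1 when low-UMI clusters were kept and to 3 with the 30% limit. In cells of 3000 to 10000 UMIs 5 members were called in CD4 T-like, 11 in Treg-like and 28 in NK-like cells. The largest cluster of CD8 T-like cells also differed between libraries: it was the Lef1 and Tcf7 cluster in PBS1 (395 of 1332 cells) and PBS2 (281 of 1211), the Gzmk and Ccl5 cluster in antiPD1 (543 of 2086) and the Lag3, Pdcd1 and Cxcr6 cluster in the combination library (560 of 2496). Monocyte/macrophage-like clusters led by C1q genes also differed between libraries. The cluster that was not cycling held 264 of 870, 166 of 761, 175 of 1194 and 184 of 1107 cells. The cycling cluster held 78, 84, 54 and 72. The part of these shifts in the result was not tested.

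**Figure D2:**
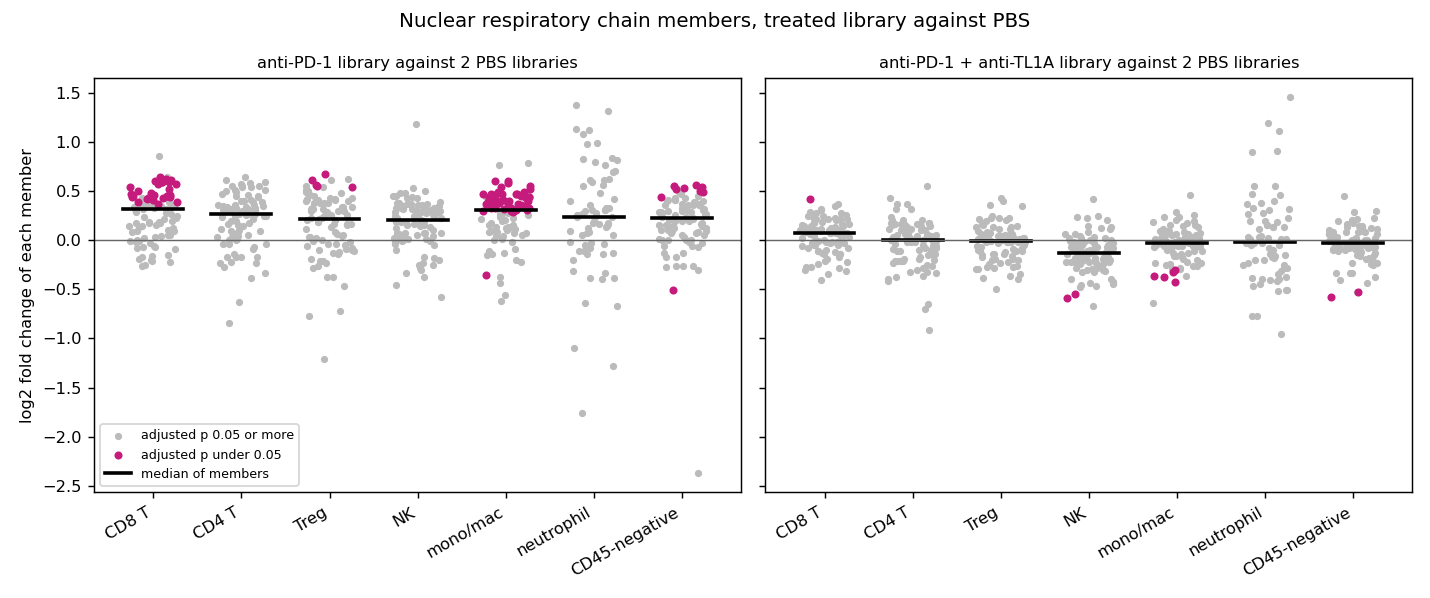
Log2 fold change of each nuclear member against the PBS pair, by cell class, for the antiPD1 library and the combination library. Each point is a member, magenta points have an adjusted p under 0.05 and black bars are medians. Medians of antiPD1 against PBS lie between 0.21 and 0.31, and those of the combination library between −0.13 and 0.07.

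Complex I had the most subunits tested and held most of the members called higher, while complex IV had a larger median rise. Of its 38 subunits 18 were higher in CD8 T-like cells (median 0.34) and in monocyte/macrophage-like cells 27 of 38 (median 0.36). Ndufa13, a subunit of the membrane arm, had 313, 304, 482 and 359 CPM in CD8 T-like and 260, 248, 386 and 271 in monocyte/macrophage-like cells. In both classes the antiPD1 library stood above the other 3, and the log2 fold changes were 0.64 ± 0.116 (adjusted p = 0.0023) and 0.61 ± 0.108 (adjusted p = 1.47e-06). Ndufs6, a zinc-binding subunit needed for a late assembly step, had 143, 130, 208 and 145 CPM in CD8 T-like cells (0.61 ± 0.102, adjusted p = 0.0011) and 125, 127, 191 and 128 in monocyte/macrophage-like cells (0.60 ± 0.103, adjusted p = 5.2e-07). The antiPD1 library alone was raised in both classes, and the other 3 lay from 130 to 145 CPM in CD8 T-like cells.

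Ndufb7, Ndufs7 and Ndufa11 were also highest in the antiPD1 library. Ndufb7 had 238, 237, 362 and 284 CPM in CD8 T-like cells (0.61 ± 0.108, adjusted p = 0.0019), and Ndufs7, which carries an iron-sulphur cluster next to the quinone site, 65.7, 64, 98 and 71.1 (0.60 ± 0.0992, adjusted p = 0.0011). Ndufa11, a membrane-arm subunit, had 130, 122, 190 and 141 CPM (0.59 ± 0.0999). It was the member with the largest change in Treg-like cells, at 113, 114, 181 and 120 (0.67 ± 0.149, adjusted p = 0.0059), and was higher in CD45-negative cells, at 71.9, 60.8, 97.5 and 65.2 (0.55 ± 0.126, adjusted p = 0.0075). Ndufab1 (0.09), Ndufb3 (−0.02), Ndufc2 (−0.07) and Ndufs1 (−0.09), the largest subunit of the electron-input arm, were not called in CD8 T-like cells, and Ndufa4 was at 0.01.

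Complex II did not move with complex I. None of the 4 subunits was called in CD8 T-like or monocyte/macrophage-like cells, with medians of 0.01 and 0.05. Sdha, the flavoprotein that oxidises succinate, had 70.8, 68.6, 72.3 and 67.4 CPM in CD8 T-like cells (0.05), and Sdhd 28.8, 23.3, 22.3 and 33.6 (−0.22). The 4 libraries lay close together for Sdha, while for Sdhd antiPD1 was the lowest and the combination library the highest. A difference between the complexes was not tested. The 12 assembly factors had a median of −0.03 in CD8 T-like and 0.05 in monocyte/macrophage-like cells, and 1 was called, Ndufaf3, at 18.6, 15.1, 25.8 and 19.4 CPM in CD8 T-like cells (0.62 ± 0.156, adjusted p = 0.0231). In CD45-negative cells the assembly factor Sdhaf4, at 41.8, 36.4, 27.6 and 37.9 CPM, was lower in the antiPD1 library than in the other 3 (−0.51 ± 0.142, adjusted p = 0.0317).

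Members of complexes III and IV were called in part. Complex III had 3 of 8 higher in CD8 T-like and 5 of 8 in monocyte/macrophage-like cells, and Uqcr10 had 247, 223, 333 and 205 CPM in CD8 T-like cells (0.50, adjusted p = 0.0082). The core protein Uqcrc2 (−0.21 and −0.14) and the Rieske iron-sulphur protein Uqcrfs1 (0.14 and 0.10) were not called. Complex IV had 4 of 14 and 8 of 14 higher. Its medians were 0.39 and 0.43, against 0.34 and 0.36 for complex I, a difference that was not tested. Cox4i1 had 578, 543, 832 and 665 CPM in CD8 T-like (0.57 ± 0.143, adjusted p = 0.0219) and 661, 600, 887 and 655 in monocyte/macrophage-like cells (0.49 ± 0.133, adjusted p = 0.0031). The antiPD1 library was the highest in both classes, and the combination library lay above the PBS pair in CD8 T-like cells but between them in monocyte/macrophage-like cells.

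**Figure D3:**
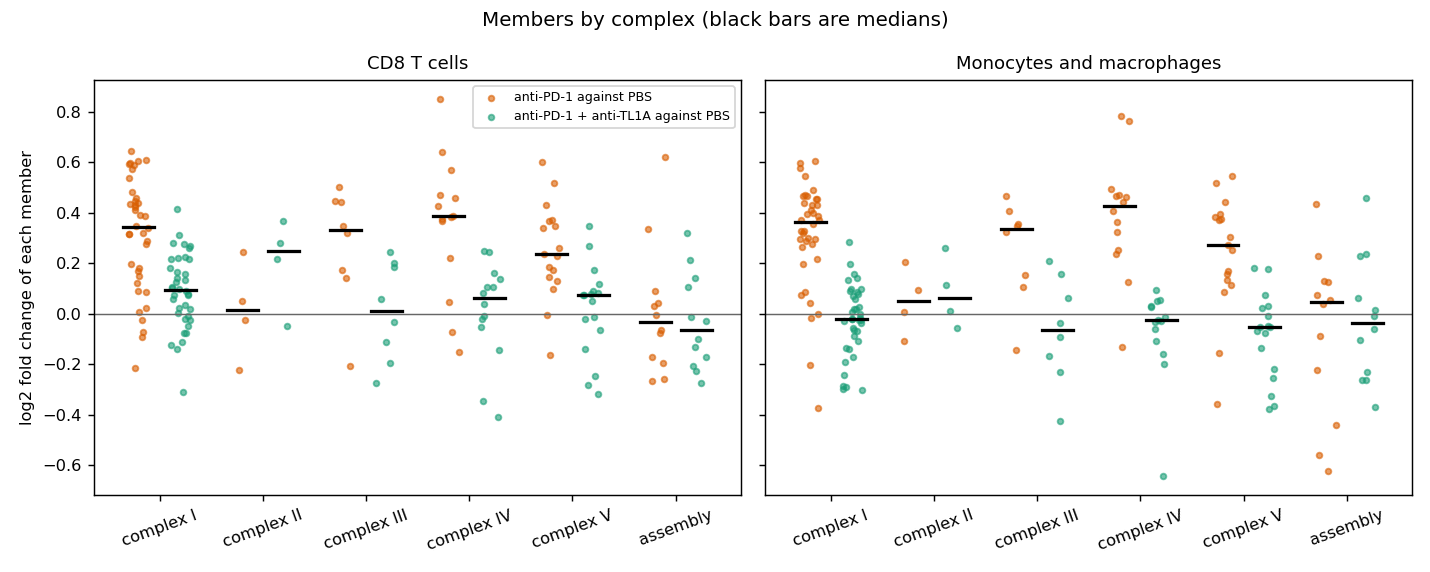
Log2 fold change against the PBS pair of each member by complex, in CD8 T-like and monocyte/macrophage-like cells, for the antiPD1 library (orange) and the combination library (green). In the antiPD1 library the medians of complex I are 0.34 and 0.36, those of complex II 0.01 and 0.05 and those of complex IV 0.39 and 0.43.

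In ATP synthase some membrane and stalk subunits rose, while Atp5a1 and Atp5b were not called. Complex V had 3 of 17 higher in CD8 T-like cells and 8 higher and 1 lower in monocyte/macrophage-like cells. Atp5j2, a membrane subunit, had 352, 335, 521 and 339 CPM in CD8 T-like (0.60 ± 0.119, adjusted p = 0.0044) and 343, 310, 468 and 274 in monocyte/macrophage-like cells (0.52 ± 0.113, adjusted p = 0.00012). Atp5d, a central stalk subunit, had 268, 253, 373 and 294 (0.52, adjusted p = 0.0078) and 215, 201, 304 and 219 (0.55 ± 0.105, adjusted p = 8.83e-06). Neither Atp5a1 (0.13 and 0.09), the alpha subunit, nor Atp5b (0.10 and 0.11), the catalytic beta subunit, was called. The 3 genes of the c ring, Atp5g1, Atp5g2 and Atp5g3, which encode the same mature protein, went apart: in monocyte/macrophage-like cells Atp5g1 was higher (0.30, adjusted p = 0.0346), Atp5g2 was lower at 269, 220, 191 and 277 CPM (−0.36 ± 0.11, adjusted p = 0.0125), and Atp5g3 was −0.16 and not called. None was called in CD8 T-like cells, at 0.26, −0.16 and −0.00.

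The mt- genes did not rise with the nuclear members. The ratio of mt- to nuclear UMIs in CD8 T-like cells was 1.90, 1.76, 1.55 and 1.82, in monocyte/macrophage-like cells 2.21, 2.38, 1.84 and 2.31, and in Treg-like cells 1.52, 1.45, 1.21 and 1.52. The antiPD1 library had the lowest ratio in 6 of the 7 classes, and neutrophil-like cells (1.55, 2.38, 2.84 and 2.34) were the exception. The share of mt- UMIs itself moved less, at 3.18%, 2.89%, 2.99% and 3.14% in CD8 T-like cells, with the antiPD1 value between the PBS pair. The genes mt-Co1 and mt-Co2 had log2 fold changes above 0 in all 7 classes, with lowest values of 0.06 and 0.03, and neither was called in any.

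The mt- gene that fell in the most classes in the antiPD1 library was mt-Nd6, the complex I subunit encoded on the opposite strand to the other mt- protein genes, in 6 of 7. Falls of mt-Nd4l were called in 3 classes and those of mt-Nd3 and mt-Atp8 in 1 each. Levels of mt-Nd6 in CD8 T-like cells were 114, 99.2, 54.9 and 94.5 CPM (−0.95 ± 0.112, adjusted p = 2.86e-05), in CD4 T-like cells 164, 149, 62.3 and 136 (−1.33 ± 0.247), and in monocyte/macrophage-like cells 75.6, 69.1, 40.8 and 74.1 (−0.83 ± 0.124, adjusted p = 3.49e-09). The antiPD1 library was the only low one of the 4. Falls of −0.83, −0.86 and −0.62 were called in Treg-like, NK-like and CD45-negative cells, while the neutrophil-like value of −0.31 was not (adjusted p = 0.995). In the combination library mt-Nd6 did not pass in any class (−0.20 to 0.19, smallest adjusted p = 0.486), with the tests of antiPD1TL1A against antiPD1 passing in 6 of 7. The Treg-like call was lost with total UMIs, in cells of 3000 to 10000 UMIs, with low-UMI clusters kept, with a mitochondrial limit of 30% and with shared barcode copies kept, the CD4 T-like call with DESeq2, and the CD45-negative call with the 30% limit.

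The short genes mt-Nd4l, mt-Nd3 and mt-Atp8 were lower in both treated libraries in monocyte/macrophage-like cells. There mt-Nd4l had 423, 400, 244 and 276 CPM, with falls of −0.76 and −0.57, mt-Nd3 535, 636, 448 and 357 (−0.39 and −0.72), and mt-Atp8 237, 321, 174 and 165 (−0.68 and −0.75). Both treated values lay below both PBS values for all 3 genes. The level of mt-Nd4l in CD8 T-like cells fell by 0.54 (adjusted p = 0.0112) and by 0.47 (adjusted p = 0.0324), in the antiPD1 and the combination library. In the same cells mt-Nd3 fell by 0.53 in the combination library (adjusted p = 0.029), while its value of −0.30 in the antiPD1 library did not pass. The gene mt-Nd4l overlaps mt-Nd4, and mt-Atp8 overlaps mt-Atp6, so the split of their reads is uncertain.

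**Figure D4:**
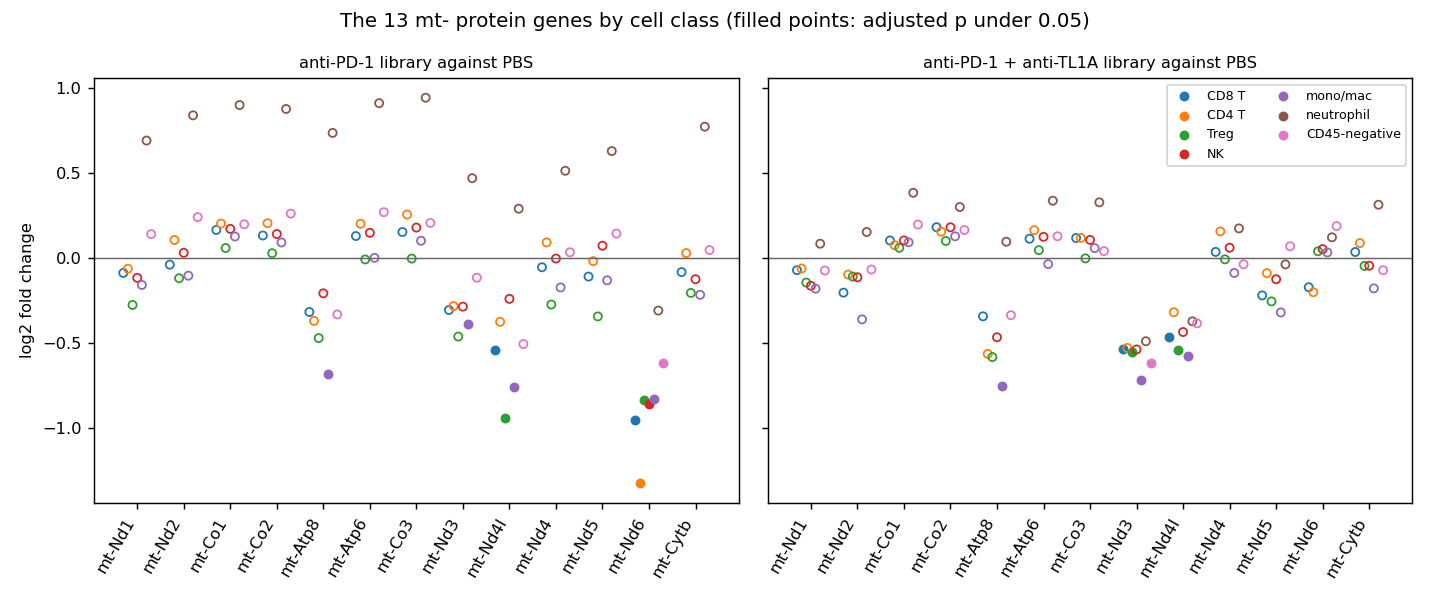
Log2 fold change of the 13 mt- protein genes against the PBS pair by cell class, for the antiPD1 and the combination library. Filled points have an adjusted p under 0.05. In the antiPD1 library mt-Nd6 is filled and below 0 in 6 classes, and in the combination library in none.

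In CD8 T-like cells the nuclear share was highest in the antiPD1 library at each rank of depth within a library. Cells of a class were ranked by UMIs in each library and cut into 3 equal groups, and in CD8 T-like cells the shallowest, middle and deepest groups of PBS1 had nuclear shares of 1.25%, 1.44% and 1.90%, those of PBS2 1.23%, 1.47% and 1.85%, those of antiPD1 1.47%, 1.72% and 2.15% and those of the combination library 1.31%, 1.62% and 1.89%. Deeper cells had larger shares in every library, and the antiPD1 group was the highest at each rank. The ranks differ in depth, since the middle group had a median of 9251.5 UMIs in PBS1 and 6102 in antiPD1. These groups therefore do not compare cells of equal depth. In monocyte/macrophage-like cells the antiPD1 groups had 1.51%, 1.71% and 1.97%, against 1.38%, 1.57% and 1.72% in PBS1 and 1.22%, 1.39% and 1.63% in the combination library. The PBS2 groups of these cells and the groups of the other classes are not listed here. Outside mt- and ribosomal protein UMIs the shares in CD8 T-like cells were 2.26%, 2.11%, 2.62% and 2.21%. The cycling part of CD8 T-like cells was 10.7%, 12.4%, 10.5% and 11.6%, lowest in the antiPD1 library.

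The fold changes moved with the base composition of the transcripts. The members' longest transcripts had a median of 908 bases and 50.3% GC, against 2040 bases and 48.1% for 32158 genes. Across the 93 members in CD8 T-like cells, Spearman's rho between GC content and the log2 fold change of antiPD1 against PBS was 0.482, and across 14646 genes 0.272. Genes share the libraries and are not independent replicates. In monocyte/macrophage-like cells the values were 0.473 and 0.233. Members above the median GC had a median log2 fold change of 0.379 with 21 of 46 called in CD8 T-like cells, and those at or below it 0.172 with 8 of 47. For the combination library against PBS rho was 0.074 for members and 0.016 for all genes in CD8 T-like cells. The part of base composition in the result was not tested.

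**Figure D5:**
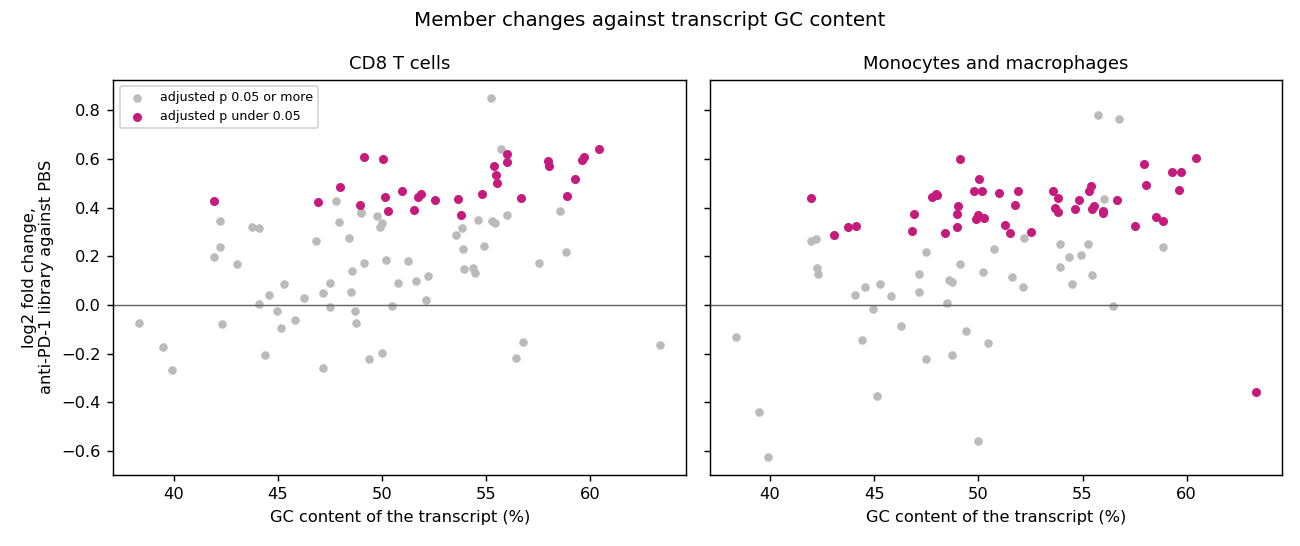
Log2 fold change of antiPD1 against PBS plotted against the GC content (percent) of the longest transcript, in CD8 T-like and monocyte/macrophage-like cells, for members only. Spearman's rho over members is 0.482 and 0.473, and over all genes, which are not drawn, 0.272 and 0.233.

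Other mitochondrial and metabolic lists moved to different extents in the antiPD1 library. In CD8 T-like cells 14 of 78 mitochondrial ribosomal protein genes were higher (median 0.24), 5 of 37 other respiratory chain genes (0.03), 3 of 25 import genes (0.15), 1 of 16 TCA cycle genes (−0.04) and 7 of 19 genes of glycolysis and hypoxia (0.26). Cytosolic ribosomal protein genes had a median of 0.24 with 0 of 84 called, so a positive median was seen outside the members too. Uqcc2 and Uqcc3, assembly factors of complex III, had 88.6, 90.8, 136 and 101 (0.61 ± 0.0976) and 50.3, 50.8, 72.8 and 55.9 CPM (0.52 ± 0.103). Higd1a, a hypoxia-induced supercomplex factor, had 153, 133, 213 and 158 (0.57 ± 0.106). All 3 were highest in the antiPD1 library.

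Regulators of mitochondrial biogenesis were called higher in the antiPD1 library in CD45-negative cells, for 2 of 20, and edgeR called 0 higher in the other 6 classes. The 2 were the protease Lonp1 (0.52, adjusted p = 0.038) and the coactivator Pprc1 (0.41, adjusted p = 0.049), while the list median in these cells was 0.01. Of 19 tested in CD8 T-like cells 0 were higher and 1 was lower (median −0.15). Myc, a driver of ribosome and mitochondrial biogenesis, fell in the antiPD1 library, at 16.3, 18.3, 7.09 and 13.9 CPM (−1.29 ± 0.194, adjusted p = 0.00044). In monocyte/macrophage-like cells 3 of 19 were lower, namely Myc (−0.70), the ETS factor Gabpa at 24.6, 26.4, 15.8 and 24.7 CPM (−0.69 ± 0.174, adjusted p = 0.0015) and Lrpprc, which stabilises mt- transcripts, at 43.9, 39, 28.8 and 40.1 (−0.53 ± 0.138, adjusted p = 0.0024). The antiPD1 library was the lowest for each. There 15 of 19 genes of glycolysis and hypoxia were higher (median 0.50), above the member median of 0.30, a difference that was not tested. Handling-stress genes, chosen as signs of tissue digestion, had a median of −0.40 with 5 of 17 lower and 1 higher in CD8 T-like cells and 0.04 in monocyte/macrophage-like cells, and their part in the result was not tested. The summed level of 116 markers of other cell types in CD8 T-like cells was 3218, 3631, 3946 and 4687 CPM, with 4 markers at 0, and in monocyte/macrophage-like cells 2402, 2441, 2197 and 2925 for 111 markers, with 3 at 0.

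The combination library differed little from the PBS pair in the members. In CD8 T-like cells 1 of 93 members was higher and 0 lower (1.71% and 1.45% of all genes; median 0.07), namely Ndufb3, an accessory complex I subunit, at 85.9, 73.1, 78.1 and 106 CPM (0.41 ± 0.105, adjusted p = 0.0339). Only the combination library was raised, and the call was lost with DESeq2, with total UMIs, with doublets kept and at the higher cluster resolution. In monocyte/macrophage-like cells 5 members were lower and 0 higher (3.68% and 5.22% of all genes; median −0.03): Uqcr11 (−0.43), Atp5k (−0.38), Atp5md (−0.37), Atp5mpl (−0.32) and Ndufc1 (−0.30). Uqcr11, a small subunit of complex III, had 225, 213, 278 and 163 CPM (adjusted p = 0.0021), and the combination library was the lowest and antiPD1 the highest. DESeq2 called 0 of the 5.

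Atp5k, a subunit at which ATP synthase dimers meet, was lower in the combination library in 3 classes. It had 235, 224, 234 and 153 CPM in NK-like cells (−0.58 ± 0.129, adjusted p = 0.018), 247, 237, 270 and 187 in monocyte/macrophage-like cells (adjusted p = 0.01) and 241, 222, 247 and 161 in CD45-negative cells (−0.53 ± 0.142, adjusted p = 0.03). The combination library alone was low. In NK-like cells Ndufc1 was the other lower member (−0.55), with none higher (0.932% of all genes lower and 0.397% higher), and in CD45-negative cells Ndufa3 (−0.58; 0.984% lower and 1.27% higher). The edgeR test called 0 members in CD4 T-like, Treg-like and neutrophil-like cells (0.136%, 0.819% and 0.0546% of all genes in either direction), where 1, 6 and 0 had an unadjusted p under 0.05 and DESeq2 called 0. Here too the unadjusted counts have no share of all genes beside them. NK-like cells had a member median of −0.13, with the combination value below both PBS values for 58 of 93 members (36.9% of all genes) and above both for 9 (34.2%). In the same cells Ppargc1a, the coactivator of mitochondrial biogenesis, was higher, at 7.09, 7.41, 7.78 and 16.5 CPM (1.19 ± 0.221, adjusted p = 0.0041).

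Between the treated libraries the members were lower in the combination library than in the antiPD1 library, a comparison of 2 libraries and not of conditions. Medians were −0.23 in CD8 T-like, −0.26 in CD4 T-like, −0.25 in Treg-like, −0.34 in NK-like, −0.36 in monocyte/macrophage-like, −0.30 in neutrophil-like and −0.26 in CD45-negative cells. In CD8 T-like cells 13 of 93 were lower and 0 higher (0.798% and 0.969% of all genes), and in monocyte/macrophage-like cells 41 lower and 1 higher (4.42% and 4.68%), or 19 lower and 3 higher with total UMIs. The 13 calls in CD8 T-like cells became 0 with total UMIs and at the higher cluster resolution, and 2 by DESeq2. In Treg-like cells 4 were lower and 0 higher (0.310% and 0.397%), in NK-like cells 4 and 0 (0.217% and 0.166%) and in CD45-negative cells 12 and 1 (0.925% and 1.83%). The 4 calls in Treg-like cells became 0 with total UMIs, by DESeq2, without the count filter, with low-UMI clusters kept, with a mitochondrial limit of 30% and with shared barcode copies kept. Those in CD45-negative cells became 1 lower with low-UMI clusters kept, 3 lower by DESeq2, and 4 lower and 2 higher with the 30% limit. None were called in CD4 T-like and neutrophil-like cells (0.223% and 0.0546% in either direction), where edgeR called 0 with 19 and 1 at an unadjusted p under 0.05 and 0 by DESeq2. Again no share of all genes is given for the unadjusted counts.

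The same small subunits led this comparison in several classes. Uqcr11 had 162, 150, 213 and 129 CPM in CD8 T-like cells (combination against antiPD1 −0.72 ± 0.119, adjusted p = 0.0012), 158, 132, 198 and 110 in NK-like cells (−0.84 ± 0.152, adjusted p = 0.0066) and 384, 347, 484 and 290 in CD45-negative cells (−0.74 ± 0.174, adjusted p = 0.01). In each class antiPD1 was the highest and the combination library the lowest. Uqcr10 (−0.70) and Atp5j2 (−0.62) were also lower in CD8 T-like cells, and Ndufa2, at 272, 257, 352 and 217 CPM, in monocyte/macrophage-like cells (−0.70 ± 0.127, adjusted p = 5.45e-06). The sole higher member in monocyte/macrophage-like cells was Atp5g2 (0.54). Several of these genes share sequence with other genes or pseudogenes, which makes their counts uncertain: 26 members share over 10% of the 31-base stretches in their last 500 bases with another gene, among them Atp5l (76.2%), Atp5h (68.9%), Atp5o (67.2%), Atp5g2 (30.2%), Atp5g1 (27.4%), Atp5j2 (22.6%), Ndufb3 (21.1%), Atp5k (20.5%), Uqcr11 (19.5%) and Ndufa13 (12.8%).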

How the data were processed

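The deposited matrices hold raw UMI counts per gene and barcode, already filtered to cells, for 4 libraries. Per the file headers their writer was Cell Ranger 7.1.0, but Cell Ranger 3.0.2 and mm10 stand in the submitters' processing notes. Sources used here do not say whether introns were counted. Library totals were 92495603, 78648222, 82816801 and 142600208 UMIs.

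Barcodes needed 200 or more genes and less than 15% mitochondrial UMIs. The smaller copies of barcodes shared between libraries (over 10-fold apart) were removed, a step chosen after seeing the data. Scrublet's automatic threshold marked at most 0.0172% of cells and had not worked, so the highest scores were removed at 0.8% per 1000 barcodes (329, 270, 974 and 951 cells). Cells were clustered with scanpy 1.11.5 and igraph 0.11.9 (Leiden, 2000 variable genes without members and mt- genes, 30 and then 20 components, 20 neighbours, resolutions 1, 1.5 and 0.8). Clusters with a median under 2000 UMIs (10000 in CD45-negative cells) or with markers of several types were left out.

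Counts were summed per class and library. All 4 libraries entered an edgeR 4.0.16 quasi-likelihood fit per class (R 4.3.3, limma 3.58.1, TMM factors, filterByExpr with a minimum of 10), and Benjamini-Hochberg adjustment covered all genes tested, with a threshold of 0.05. Only the PBS pair gives residual spread. The fitted biological coefficient of variation was 8.03% to 13.1% in 6 classes and 23.3% in neutrophil-like cells. Class contrasts used paired class sums with the library as a block, since both classes come from the same library. The fit was tested on simulated counts. Alternatives were DESeq2 1.42.0, RLE factors, total UMIs, no filter, cells of 3000 to 10000 UMIs, sums thinned to equal totals, other cell filters, a higher resolution and leaving out each library. Most genes were named by a rule: up to 8 called members with the largest change per class and comparison, up to 5 in each direction per class contrast, isoform sets and complex II whatever their values. Some members named for antiPD1 against PBS fall outside it. Among them are Uqcr10 and Atp5d in CD8 T-like cells, and Ndufab1, Ndufc2, Ndufs1, Uqcrc2, Uqcrfs1, Atp5a1 and Atp5b, which were not called. Members and lists were chosen with earlier results of these data known. Gene positions follow GENCODE M21 on GRCm38 and promoters RefSeq on GRCm38.p6. The letters searched for NRF1 were shortened from a longer pattern after its matches had been seen. A YY1 pattern was searched too and is not reported here.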

Additional observations from a re-analysis of the deposited data

Results flagged for a closer look

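Some shares moved in opposite directions between classes in a treated library against both PBS libraries. None of these differences was tested. In the combination library the nuclear share in CD8 T-like cells, 1.73%, lay above both PBS values (1.67% and 1.64%), while it lay below both in NK-like, monocyte/macrophage-like and CD45-negative cells. In the antiPD1 library the mt- share lay above both PBS values in neutrophil-like cells (1.71% against 0.899% and 1.11%) and in CD45-negative cells (5.91% against 5.63% and 5.71%), and below both in Treg-like and monocyte/macrophage-like cells. In the combination library the mt- share in monocyte/macrophage-like cells, 3.50%, lay below both PBS values (3.60% and 3.74%), and it lay above both in NK-like and neutrophil-like cells. The mt- to nuclear ratio of the antiPD1 library was above both PBS values in neutrophil-like cells (2.84 against 1.55 and 2.38) and below both in the other 6 classes. Neutrophil-like cells numbered 137, 192, 147 and 176 with 11.9 to 16.4 nuclear member UMIs per cell.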

How the results depend on the processing

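Of 337 alternative values of the counts, shares and ratios, 236 were taken as unchanged. Counts had to stay within 1.5-fold of the main value, and shares and ratios within 1 SD over the libraries. Named genes had 1787 alternative values, of which 1497 were unchanged, keeping call and direction. Where a PBS library was left out of a library comparison, staying within 1 SE was asked instead. Of the rest 276 lost the call, 13 moved and 1 reversed. Counts of members called are given as antiPD1 against PBS, combination against PBS and combination against antiPD1, for the classes that changed; the cause was not tested. DESeq2 called 10 (CD8 T-like), 0 (Treg-like) and 13 (monocyte/macrophage-like) in the first, 0 in the second in CD8 T-like, NK-like, monocyte/macrophage-like and CD45-negative cells, and 2, 0, 2, 10 and 3 in the third (CD8 T-like, Treg-like, NK-like, monocyte/macrophage-like, CD45-negative). With RLE factors NK-like cells had 3 in the first and 16 in the third, and monocyte/macrophage-like cells 3 in the second. Total UMIs gave 0 (CD8 T-like), 0 (Treg-like), 1 (NK-like, lower) and 18 (monocyte/macrophage-like), then 0 (CD8 T-like) and 3 (monocyte/macrophage-like), then 0, 0 and 22 (CD8 T-like, Treg-like, monocyte/macrophage-like). Cells of 3000 to 10000 UMIs gave 47, 5, 11, 28 and 23 (CD8 T-like, CD4 T-like, Treg-like, NK-like, monocyte/macrophage-like), then 6, 0 and 0 (CD8 T-like, NK-like, monocyte/macrophage-like), then 2, 16 and 21 (CD4 T-like, NK-like, monocyte/macrophage-like), and 23 for NK-like against CD8 T-like cells. In these cells the mean nuclear share was 1.45%, 1.42% and 1.46% (CD8 T-like, NK-like, monocyte/macrophage-like), the mt- share 3.31%, 1.76%, 2.63% and 2.97% (CD8 T-like, Treg-like, NK-like, monocyte/macrophage-like) and the CD8 T-like ratio 2.32. With doublets kept there were 1 (NK-like), then 0 (CD8 T-like), then 5, 1, 9 and 13 (CD8 T-like, CD4 T-like, Treg-like, NK-like). With low-UMI clusters kept there were 0, 1 and 1 (Treg-like, NK-like, CD45-negative), then 1 (CD45-negative), then 0, 11 and 1. A mitochondrial limit of 30% gave 0 and 3 (Treg-like, CD45-negative), then 1 and 1 (NK-like, monocyte/macrophage-like), then 8, 1, 0, 14, 22 and 6 (CD8 T-like, CD4 T-like, Treg-like, NK-like, monocyte/macrophage-like, CD45-negative), with ratios of 2.68 (CD4 T-like) and 2.86 (CD45-negative) and an mt- share of 5.99% (CD45-negative). Without the count filter there were 2 (Treg-like), then 3 and 3 (CD8 T-like, monocyte/macrophage-like), then 0 and 7 (Treg-like, NK-like). A resolution 1.5 times as high gave 0 and 3 (CD8 T-like, Treg-like), then 0 and 3 (CD8 T-like, monocyte/macrophage-like), then 0, 1 and 16 (CD8 T-like, Treg-like, NK-like). Thinned sums gave 1 and then, in the third, 7 in NK-like cells. Keeping shared barcode copies, an alternative chosen after seeing the data, gave 1 (Treg-like) and in the third 8, 1, 0 and 15 (CD8 T-like, CD4 T-like, Treg-like, NK-like). Outside mt- and ribosomal UMIs the mean nuclear share was 2.30%, 1.55%, 1.61%, 2.06%, 1.95% and 3.01% (CD8 T-like, CD4 T-like, Treg-like, NK-like, monocyte/macrophage-like, CD45-negative). The class contrasts pair classes by library, and without this replicate block 40 members were called for cycling CD8 T-like, 26 for monocyte/macrophage-like against CD8 T-like, 6 for NK-like against CD8 T-like and 12 for Treg-like against CD4 T-like cells, where DESeq2 called 22. Leaving out 1 library at a time, NK-like against CD8 T-like cells had from 15 (without antiPD1) to 51 (without PBS1). Medians reversed in neutrophil-like cells with doublets kept (−0.14 for antiPD1 against PBS, 0.12 for combination against antiPD1) and for monocyte/macrophage-like against CD8 T-like cells (−0.054 with total UMIs, −0.018 without the count filter). The median of Treg-like against CD4 T-like cells turned to −0.052 in cells of 3000 to 10000 UMIs. Medians of combination against PBS near 0 kept their sign in 6 of 13 alternatives (CD4 T-like), 7 of 13 (Treg-like), 8 of 12 (neutrophil-like), 12 of 13 (monocyte/macrophage-like) and 11 of 12 (CD45-negative). Cox4i2 reversed for monocyte/macrophage-like against CD8 T-like cells to −0.53 in cells of 3000 to 10000 UMIs. Over the settings the member median of antiPD1 against PBS ran from 0.22 to 0.48 in CD8 T-like and from 0.19 to 0.35 in monocyte/macrophage-like cells. No paired analysis was possible because the treated arms have 1 library each, and the cell window left too few neutrophil-like and CD45-negative cells for a fit. Leaving out a PBS library leaves no residual spread, so those values carry no test.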

Other observations

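Smaller classes were not tested and are given as values in the order PBS1, PBS2, antiPD1, combination. B-like cells (169, 90, 160 and 109) had nuclear shares of 0.975%, 0.863%, 1.02% and 0.892%, with antiPD1 again the highest of the 4. Over the 4 libraries, conventional dendritic-like cells averaged a nuclear share of 1.59%, near monocyte/macrophage-like cells (1.64%). Mature dendritic-like cells, led by Ccr7 and Fscn1, had a lower mean of 1.18% with an mt- share of 1.79%. Plasmacytoid dendritic-like cells averaged 1.48% and gamma-delta T-like cells 1.22%.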
